A study of Mus musculus with 6 samples.

Results

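Aminoacyl-tRNA synthetases attach each amino acid to its transfer RNA, and the genes of amino acid supply make or import what they attach. The gene group described here held 52 of the 16640 genes in the deposited table. It was chosen by symbol for the synthetases (a capital letter followed by ars, with or without a final 1 or 2, and the names *Eprs*, *Farsa* and *Farsb*) and by name for 15 supply genes. There were 20 cytosolic synthetases, 17 mitochondrial synthetases, whose symbols end in 2, and the 15 supply genes. *Gars* and *Kars* each encode both the cytosolic and the mitochondrial enzyme and were counted as cytosolic. All 52 genes passed the filter on low counts.

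The cytosolic synthetases charge tRNAs for ribosomes that translate nuclear mRNAs, and several are held together in a multisynthetase complex, while a separate set is imported into mitochondria. When charged tRNAs run short, the kinase GCN2 phosphorylates eIF2α and translation of the transcription factor ATF4 increases. ATF4 is known to raise transcription of many cytosolic synthetases, of amino acid transporters and of the enzymes of serine, glycine and proline synthesis. The β-cell makes and secretes large amounts of insulin and therefore has a high demand for amino acids.

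MIN6 is a mouse β-cell line derived from an insulinoma. The activated line received dCas9-VP64 by lentivirus with puromycin selection and then a *Thada* sgRNA with MS2-P65-HSF1 under G418, and the control line carried dCas9 with a non-targeting sgRNA. BGISEQ-500 sequencing of bulk RNA gave 3 libraries for each condition. Each condition was a stable line, so the libraries of a condition may come from a single line, and p-values measure only the spread between libraries, which may be technical. Totals ranged from 17166511 to 17727004 counts per library, and the 52 genes took 0.544, 0.553 and 0.545% of the counts of control replicates 1, 2 and 3 and 0.534, 0.54 and 0.456% of those of *Thada*-activated replicates 1, 2 and 3. Levels in a library are given in CPM, that is counts scaled to a common library size after TMM normalization, always in the order of replicates 1, 2 and 3. Levels of different genes are compared in the deposited FPKM, which also divides by gene length. In bulk RNA, fewer cells of a type and less RNA per cell cannot be told apart.

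*Thada*, the targeted gene on chr17:84190056-84466246 (GRCm38.p6), was measured at 28.1, 28.9 and 17.2 CPM in control and 57.3, 56.2 and 49.1 CPM in *Thada*-activated libraries. Each activated library lay above each control library, and control replicate 3 was the lowest. The log2 fold change was 1.13 (SE 0.22 and, in the quasi-likelihood test of edgeR, unadjusted p = 0.00196 and adjusted p = 1), where SE is the standard error. A fit that also held the replicate number as a block gave an adjusted p of 0.00041 in that test, and over all alternatives the adjusted p ranged from 1.4e-22 to 1. Of the 9 β-cell markers, 8 were tested, and *Ins2* had a mean of 225648 FPKM, *Iapp* 55419 FPKM, *G6pc2* 1743 FPKM and *Pdx1* 163 FPKM. *Slc2a2*, the glucose transporter of mouse β-cells, was near 0, with from 0.02 to 0.21 FPKM, so that this defining marker was all but absent in every library. Markers of other pancreatic cells were partly present: the 4 α-, δ- and PP-cell markers in the table summed to 198, 166 and 111 CPM in control and 184, 173 and 115 CPM in *Thada*-activated libraries, with *Sst* the most abundant. The 2 duct markers in the table, led by *Krt7*, summed to 151, 151 and 73 CPM in control and 184, 185 and 97.2 CPM in *Thada*-activated libraries. Fibroblast markers (3 in the table, led by *Col1a1*) summed to between 2.74 and 5.63 CPM in a library. The 3 endothelial and 2 immune markers in the table, led by *Pecam1* and *Cd68*, reached at most 1.26 and 1.24 CPM, and the 2 acinar ones, led by *Amy2a5*, 0.115 CPM. *Cel*, *Cdh5*, *Kdr* and *Adgre1* had 1 count in 1 library and 0 in the others, and listed markers outside the table, such as *Cftr* and *Ptprc*, were not analysed here.

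On the FPKM scale, the cytosolic synthetases had higher mean levels than the mitochondrial ones. *Gars*, the glycyl-tRNA synthetase, was the highest cytosolic member with a mean of 159 FPKM (from 127 to 178 over the 6 libraries). *Farsa*, the α subunit of the phenylalanyl enzyme, was the lowest with 20.4 FPKM (from 14.9 to 23.9). Among the mitochondrial enzymes, *Rars2* for arginine was the highest with 12.3 FPKM (from 9.78 to 13.8) and *Mars2* for methionine the lowest with 1.72 FPKM (from 1.41 to 2.06). Every cytosolic mean therefore lay above every mitochondrial mean, but the levels in single libraries overlapped, since the mitochondrial *Fars2* reached 17.3 FPKM and the cytosolic *Lars* went down to 14.2 FPKM. The supply genes spanned both ranges, from *Slc7a11*, the cystine transporter subunit, with 0.983 FPKM to *Psat1*, the transaminase of serine synthesis, with 164 FPKM.

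**Figure D1:**
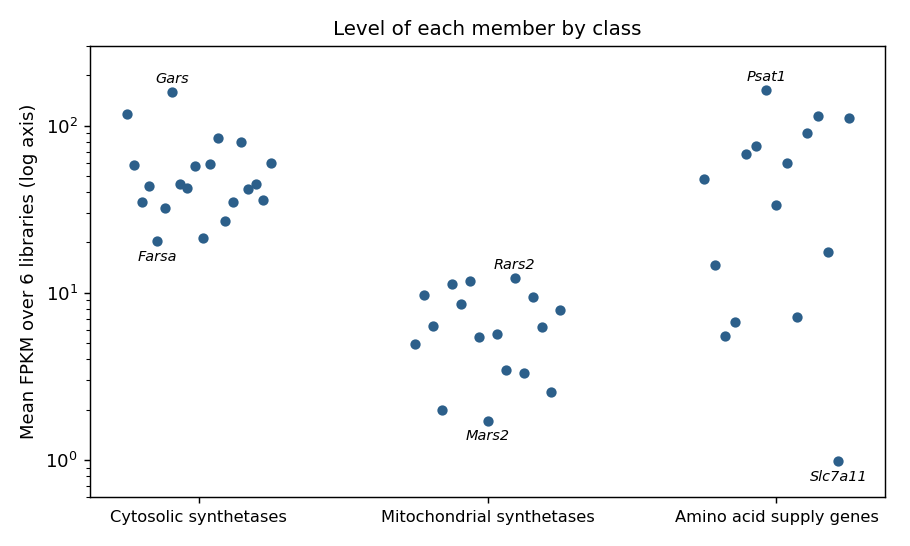
Mean FPKM over the 6 libraries of each of the 52 genes, on a log axis, with a point per gene and the highest and lowest gene of each class named. The cytosolic synthetases range from 20.4 to 159 FPKM and the mitochondrial ones from 1.72 to 12.3 FPKM, and the supply genes span both ranges.

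The question of the first comparison was whether these genes differ between *Thada*-activated and control cells. A gene was called where its Benjamini-Hochberg adjusted p was under 0.05 and its fold change over 1.5. By the quasi-likelihood test of edgeR 0 of the 52 were called, where 0% of the 12516 tested genes were called, and 0 of the 52 had an unadjusted p under 0.05, against 0.807% of all tested genes. DESeq2 called 0 of the 52. The log2 fold changes of the 52 lay between -0.35 and 0.27. Estimates were below 0 for 18 of 20 cytosolic synthetases, with a median of -0.10, and for 11 of 15 supply genes, with a median of -0.15. Those of 12 of 17 mitochondrial synthetases were above 0, with a median of 0.06, and the median of all tested genes was 0.00. Without *Thada*-activated replicate 3 the medians were -0.02 for the cytosolic synthetases and -0.03 for the supply genes, and the supply median was -0.23 without *Thada*-activated replicate 1 or replicate 2, -0.10 without control replicate 1 and -0.09 without control replicate 2. The mitochondrial median was -0.02 without control replicate 3 and from 0.04 to 0.09 without any other library. None of these differences passed in this fit, whose spread includes that between replicate 3 and the other libraries: the biological coefficient of variation was 0.253, against 0.063 once replicate numbers entered the model as a block. The summed level of the cytosolic synthetases was 3229, 3244 and 3151 CPM in control and 3101, 3130 and 2561 CPM in *Thada*-activated libraries, and that of the supply genes 1998, 2002 and 2121 CPM in control and 1946, 1983 and 1624 CPM in *Thada*-activated libraries. In each pair of same-numbered libraries both sums were lower in the *Thada*-activated library, with the widest gap in replicate 3. The sum of the mitochondrial synthetases was 279, 277 and 264 CPM in control and 281, 281 and 282 CPM in *Thada*-activated libraries, higher in the *Thada*-activated library of each pair. These sums were not tested.

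*Nars*, which charges tRNA with asparagine, had the largest difference of the cytosolic class, with 246, 250 and 190 CPM in control and 218, 221 and 140 CPM in *Thada*-activated libraries. Replicate 3 was the lowest library in both conditions, and the conditions overlapped. Its log2 fold change was -0.25 (SE 0.22 and, in the quasi-likelihood test of edgeR, unadjusted p = 0.304 and adjusted p = 1). Without *Thada*-activated replicate 3, but with the low control replicate 3 kept, it was -0.06. With the replicate block it was -0.26 (SE 0.07), and in replicates 1 and 2 only -0.18. *Yars*, the tyrosyl enzyme, was measured at 141, 143 and 235 CPM in control and 146, 139 and 161 CPM in *Thada*-activated libraries. Control replicate 3 stood alone above the other 5 libraries, and the log2 fold change of -0.22 (SE 0.23) became 0.07 without that library. Without *Thada*-activated replicate 3 the value of *Yars* was -0.28, further from 0 than that of *Nars*. Of the supply genes, *Phgdh*, the dehydrogenase that commits 3-phosphoglycerate to serine synthesis, had 137, 147 and 148 CPM in control and 129, 127 and 92.8 CPM in *Thada*-activated libraries. Each activated library was below each control library, with *Thada*-activated replicate 3 the lowest, and the log2 fold change was -0.30 (SE 0.15 and, in the quasi-likelihood test of edgeR, unadjusted p = 0.0933 and adjusted p = 1). This fold change was -0.16 without *Thada*-activated replicate 3 and -0.14 in replicates 1 and 2 only. *Cth*, the cystathionine lyase that releases cysteine, was measured at 8.9, 8.26 and 13.5 CPM in control and 8.78, 8.11 and 7.11 CPM in *Thada*-activated libraries. Control replicate 3 was again apart from the other 5, and the log2 fold change was -0.35 (SE 0.23), or -0.10 without that library. The mitochondrial *Fars2* and *Sars2*, for phenylalanine and serine, had the largest differences of their class, with log2 fold changes of -0.12 and 0.12 and standard errors of 0.41 and 0.46. *Sars2* was measured at 7.38, 5.06 and 3.1 CPM in control and 7.04, 7.02 and 2.84 CPM in *Thada*-activated libraries, and *Fars2* at 14.3, 15.5 and 29.1 CPM in control and 13, 13.6 and 27.5 CPM in *Thada*-activated libraries. Replicate 3 stood apart in both genes, and the signs turned without control replicate 3 (*Fars2* 0.27, *Sars2* -0.14), *Thada*-activated replicate 1 (0.06 and -0.07) or *Thada*-activated replicate 2 (0.04 and -0.07). With 1 library left out of this fit, replicate 3 makes up a different share of the libraries in each condition. The signs did not turn with the replicate block (*Fars2* -0.13, SE 0.09, and *Sars2* 0.11, SE 0.16). In replicates 1 and 2 only the values were -0.17 and 0.18.

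When the replicate number was held as a block, 0.152% of the tested genes were called (19 against 0 without it) and still 0 of the 52, with 0 also called by DESeq2 in the blocked fit. At an unadjusted p under 0.05 in the blocked edgeR test, 9 of the 52 were lower in *Thada*-activated cells (*Aars*, *Cars*, *Eprs*, *Iars*, *Nars*, *Aldh18a1*, *Mthfd2*, *Phgdh* and *Psat1*), where 4.34% of all tested genes were, and 1 was higher (*Cbs*, the β-synthase before *Cth*), where 6.06% were. None of these 10 had an adjusted p under 0.05, and the smallest was 0.189 for *Nars* in the blocked edgeR test. No mitochondrial synthetase was among the 10. The 6 libraries did not overlap between the conditions for 5 of the 52, all lower in *Thada*-activated cells (*Cars*, *Sars*, *Mthfd2*, *Phgdh* and *Psat1*), where 2.7% of the tested genes were, and for 0 that were higher, where 2.7% were. In replicates 1 and 2 only, 1 of the 52 was lower at an adjusted p under 0.05 in edgeR's test, where 1.44% of the tested genes were: *Nars*, at -0.18 on the log2 scale (adjusted p = 0.0299, the lowest of its alternatives, which reached up to 1). With the replicate block in those replicates its log2 fold change was again -0.18. *Nars* did not pass there (adjusted p = 0.0897 in edgeR's test). No other of the 52 passed, where 1.11% of the tested genes were lower and 1.82% higher at an adjusted p under 0.05. At an unadjusted p under 0.05 in that test there were 4 of the 52, *Nars* included, beside 14% of the tested genes. In replicates 1 and 2 without the block, 5 of the 8 tested β-cell markers passed, 3 higher and 2 lower, and both duct markers passed as higher, *Krt19* at 1.87 (adjusted p = 0.000572 in edgeR's test, or 0.000502 with the block) and *Krt7* at 0.28 on the log2 scale (adjusted p = 0.000203 in edgeR's test, or 0.00119 with the block). Over all 6 libraries they were higher at an unadjusted p under 0.05 in the blocked edgeR test (*Krt19* 1.78 and *Krt7* 0.32 on the log2 scale), and the part of these β-cell and duct markers in these results was not tested. *Krt19* had few counts, 9, 9 and 6 in control and 42, 26 and 18 in *Thada*-activated libraries.

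The next question was how the replicate 3 libraries, which stood apart in both conditions, differed from replicates 1 and 2 in these genes, with the condition in the model. In this comparison 31.1% of the 12516 tested genes were called. Of the 52, 5 were called higher in replicate 3, where 15.7% of all tested genes were, and 9 lower, where 15.4% were, so that the group as a whole was not called more often than other genes. At an adjusted p under 0.05 and any fold, 10 of the 52 were higher and 25 lower, beside 34.3% and 34.4% of all tested genes. By class, 8 of 17 mitochondrial synthetases, 2 of 20 cytosolic ones and 4 of 15 supply genes were called, and whether the classes differ in this was not tested. The replicate 3 libraries also differed in cell type markers, since *Ins2* took 10.2% and 8.36% of the counts in replicate 3 of control and *Thada*-activated cells and between 5.65% and 6.44% in the other 4 libraries. The duct and the α-, δ- and PP-cell sums given above were lowest in replicate 3 of each condition, and the 9 β-cell markers summed to 108491, 97398 and 131321 CPM in control and 102703, 100737 and 114408 CPM in *Thada*-activated libraries, with *Ins2* the most abundant. These sums do not stand for the single markers. All 8 tested β-cell markers passed at an adjusted p under 0.05 in edgeR's test (7 in DESeq2), and only *Ins1* (0.82) and *Ins2* (0.57) were higher in replicate 3 on the log2 scale. The other 6 were lower, namely *Pdx1* (-1.03), *Nkx2-2* (-0.91), *Mafa* (-0.61), *Iapp* (-0.58), *Nkx6-1* (-0.33) and *G6pc2* (-0.26). Of the 3 tested α-, δ- and PP-cell markers, *Sst* (-1.14) and *Gcg* (-0.34) were lower and *Ppy* (0.70) higher in the same test. The part of these differences in the results for the 52 genes was not tested.

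Mitochondrial synthetases moved in both directions in replicate 3. *Cars2*, the cysteinyl enzyme (chr8:11514017-11550781), was measured at 19.9, 19.7 and 5.74 CPM in control and 19.3, 22.9 and 6.65 CPM in *Thada*-activated libraries. Replicate 3 was far below the other libraries in both conditions, and the log2 difference was -1.72 (SE 0.12 and, in the quasi-likelihood test of edgeR, adjusted p = 1.22e-08). *Sars2*, with the values above, was lowest in both replicate 3 libraries and had a log2 difference of -1.15 (SE 0.19 and, in the quasi-likelihood test of edgeR, adjusted p = 6.96e-05). *Ears2* for glutamate and *Lars2* for leucine fell as well, by 0.86 and 0.80 on the log2 scale. In contrast, *Wars2* for tryptophan (chr3:99140107-99221230) was measured at 6.27, 6.29 and 14.3 CPM in control and 6.36, 7.07 and 12.6 CPM in *Thada*-activated libraries. Both replicate 3 libraries lay above the other 4, and the log2 difference was 1.05 (SE 0.12 and, in the quasi-likelihood test of edgeR, adjusted p = 1.79e-06). *Aars2* for alanine had 12.6, 10.7 and 23.8 CPM in control and 12.1, 11.9 and 23.7 CPM in *Thada*-activated libraries, again without overlap, and a log2 difference of 1.01 (SE 0.09 and, in the quasi-likelihood test of edgeR, adjusted p = 2.59e-07). *Fars2*, with the values above, and *Nars2* rose by 1.00 and 0.68 on the log2 scale. The median over the 17 mitochondrial synthetases was -0.17, with 6 higher and 11 lower, and was -0.11 without control replicate 3.

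Only 2 cytosolic synthetases were called in replicate 3 in this fit, both lower. *Lars*, the leucyl enzyme, whose product is also a leucine sensor of mTORC1 signalling, had 88.7, 99.8 and 56.9 CPM in control and 84.9, 88 and 51.2 CPM in *Thada*-activated libraries. Replicate 3 was the lowest library in both conditions, and the log2 difference was -0.74 (SE 0.07 and, in the quasi-likelihood test of edgeR, adjusted p = 2.17e-07). *Farsa* was measured at 39.3, 35.6 and 25.2 CPM in control and 39.9, 39.3 and 25.8 CPM in *Thada*-activated libraries and had a log2 difference of -0.59 (SE 0.08 and, in the quasi-likelihood test of edgeR, adjusted p = 6.45e-06). Its fold change was close to 1.5, and it missed that threshold without control replicate 1 (log2 difference -0.58) and without *Thada*-activated replicate 3 (-0.57). *Nars*, with the 6 values above, had a difference of -0.52 and reached the fold threshold without control replicate 3 (-0.65). *Hars* for histidine, with 92.8, 86.6 and 65.6 CPM in control and 93.4, 88.6 and 62.4 CPM in *Thada*-activated libraries, had -0.50. Both passed the test at an adjusted p under 0.05 in edgeR's quasi-likelihood test without the fold change. *Gars*, the most abundant in FPKM, had 384, 395 and 338 CPM in control and 370, 371 and 281 CPM in *Thada*-activated libraries, with replicate 3 the lowest in both conditions. The median over the 20 cytosolic synthetases was -0.21, with 6 higher and 14 lower, and it was -0.07 without *Thada*-activated replicate 3.

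Among the supply genes, the transporters for cystine and for cationic amino acids and an enzyme of mitochondrial folate metabolism were lower in replicate 3. *Slc7a11* was measured at 11.2, 12.7 and 4.25 CPM in control and 10.4, 11.8 and 2.73 CPM in *Thada*-activated libraries. Both replicate 3 libraries lay below the other 4, and the log2 difference was -1.73 (SE 0.16 and, in the quasi-likelihood test of edgeR, adjusted p = 2.25e-07). *Slc7a1*, the transporter of arginine and lysine (chr5:148327410-148399904), had 158, 151 and 68.3 CPM in control and 151, 152 and 59.1 CPM in *Thada*-activated libraries and a log2 difference of -1.27 (SE 0.06 and, in the quasi-likelihood test of edgeR, adjusted p = 8.9e-10). *Mthfd1l*, which releases formate from mitochondria, had 28.5, 29.8 and 11.4 CPM in control and 29.7, 29.6 and 12.3 CPM in *Thada*-activated libraries and a log2 difference of -1.31 (SE 0.09 and, in the quasi-likelihood test of edgeR, adjusted p = 1.06e-08). *Pycr1*, the last enzyme of proline synthesis, was the only supply gene called higher, with 87.2, 84.7 and 142 CPM in control and 92.6, 95.1 and 131 CPM in *Thada*-activated libraries and a log2 difference of 0.61 (SE 0.06 and, in the quasi-likelihood test of edgeR, adjusted p = 8.28e-07). Its difference was 0.57 without control replicate 2 and 0.49 without control replicate 3, under the fold threshold. The median over the 15 supply genes was -0.19, and it turned to 0.06 without *Thada*-activated replicate 3.

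**Figure D2:**
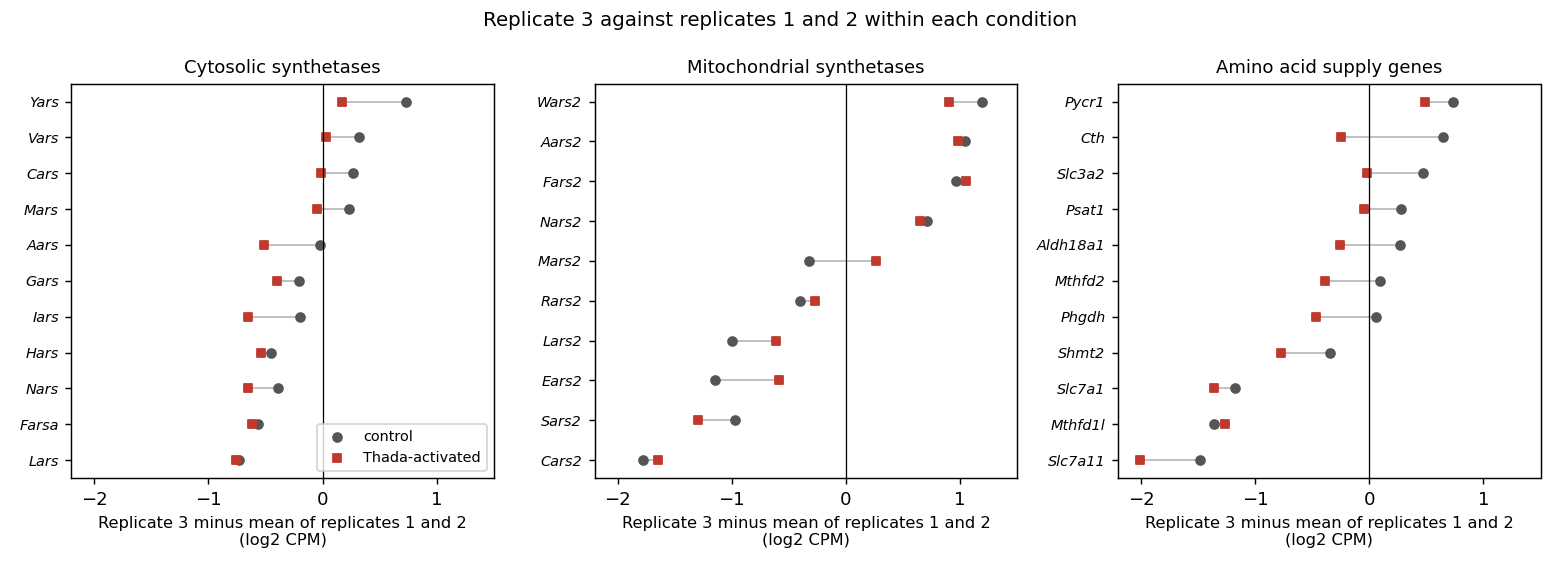
Difference of replicate 3 from the mean of replicates 1 and 2 in log2 CPM for the genes that were called in replicate 3 or are named for their values, in control (circles) and *Thada*-activated cells (squares), joined by a line, with a panel for each class. The square lies to the left of the circle for 11 of 11, 4 of 10 and 10 of 11 of the genes shown, some of which were chosen for this difference, and over the whole classes for 17 of 20 cytosolic synthetases, 5 of 17 mitochondrial synthetases and 12 of 15 supply genes.

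The difference of replicate 3 was then taken within each condition. Within control cells the median difference of replicate 3 from replicates 1 and 2 was -0.07 for the cytosolic synthetases, -0.22 for the mitochondrial ones and 0.06 for the supply genes. Within *Thada*-activated cells it was -0.23, -0.11 and -0.26, and for all tested genes it was 0.00 in both. In the sums given above, *Thada*-activated replicate 3 was the lowest library for the cytosolic synthetases and for the supply genes, while control replicate 3 was the lowest control library in the first sum and the highest in the second. The mitochondrial sums showed no such gap in *Thada*-activated replicate 3.

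After these values were seen, the difference between the conditions in replicate 3 was tested against that in replicates 1 and 2 by an interaction term. This term rests on 1 library per condition in replicate 3, and the spread comes from replicates 1 and 2 alone, with 2 residual degrees of freedom. Replicates 1 and 2 were close to each other, with a chi-square per degree of freedom of 4.3 in control and 1.81 in *Thada*-activated cells, against 89.8 to 127 for each pair of libraries of a condition that held replicate 3. The spread among further libraries like replicate 3 is therefore not in the test, and its p-values do not cover it. At an adjusted p under 0.05 and any fold in edgeR's quasi-likelihood test, 13 of the 52 had a negative term, meaning that they were lower in *Thada*-activated relative to control cells in replicate 3 than in the other replicates, where 3.26% of the tested genes were, and 0 had a positive term, where 3.7% were. They were 6 cytosolic synthetases (*Aars*, *Cars*, *Iars*, *Mars*, *Vars* and *Yars*) and 7 supply genes (*Aldh18a1*, *Cth*, *Mthfd2*, *Phgdh*, *Psat1*, *Shmt2* and *Slc3a2*). None of the 17 mitochondrial synthetases passed in edgeR's test or by DESeq2, and 1 did in edgeR without control replicate 2. At an unadjusted p under 0.05 in edgeR's test there were 2 of the 17, both positive. Of the 12516 tested genes, 1306 had a positive and 1337 a negative term at that threshold. With a fold change over 1.5 as well, 1 of the 52 (*Cth*) was called, where 1.81% of all tested genes were. The class medians were -0.20 for the cytosolic synthetases, -0.33 for the supply genes and 0.09 for the mitochondrial ones, beside 0.00 for all tested genes. DESeq2 gave 8 of the 52, with no adjusted p for *Cth*, and 1.04% of all tested genes. The count was 18 without control replicate 1 or control replicate 2, 8 without *Thada*-activated replicate 1 and 9 without *Thada*-activated replicate 2, and that of all tested genes, 871 with every library, moved with it to 1757, 1455, 345 and 316 in the same order. Of the 8 tested β-cell markers, 5 also passed, with negative terms for *Ins2* (-0.40), *Mafa* (-0.46) and *Nkx2-2* (-0.35) and positive ones for *Iapp* (0.42) and *G6pc2* (0.51). DESeq2 gave 1 of these 8, and the part of the markers in the result was not tested.

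The synthetases showed the pattern in different forms. *Aars*, the alanyl enzyme (chr8:111027778-111055569), was measured at 462, 430 and 441 CPM in control and 419, 435 and 300 CPM in *Thada*-activated libraries. The first 5 of these libraries were close together and *Thada*-activated replicate 3 was the lowest, with an interaction term of -0.49 (SE 0.09 and, in the quasi-likelihood test of edgeR, adjusted p = 6.88e-05). *Iars* for isoleucine had 197, 203 and 174 CPM in control and 186, 194 and 121 CPM in *Thada*-activated libraries and a term of -0.45 (SE 0.09 and, in the quasi-likelihood test of edgeR, adjusted p = 0.000741), also with *Thada*-activated replicate 3 the lowest. For *Yars*, with the values given above, it was control replicate 3 that stood apart, and the term was -0.56 (SE 0.09 and, in the quasi-likelihood test of edgeR, adjusted p = 1.78e-05). *Cars*, *Mars* and *Vars*, for cysteine, methionine and valine, had terms of -0.29, -0.28 and -0.29. They did not pass in DESeq2 or with library totals alone. Nor did they pass without *Thada*-activated replicate 1 (-0.29, -0.25 and -0.33) or replicate 2 (-0.28, -0.32 and -0.24).

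Of the 5 supply genes of serine and glycine synthesis, *Phgdh*, *Psat1* and *Shmt2* passed. *Psph*, the phosphatase that releases serine, with a term of -0.27 (SE 0.12 and, in the quasi-likelihood test of edgeR, adjusted p = 0.177), and *Shmt1*, the cytosolic counterpart of *Shmt2*, with 0.12 (SE 0.19 and, in the quasi-likelihood test of edgeR, adjusted p = 0.782), did not. *Phgdh* had a term of -0.52 (SE 0.10 and, in the quasi-likelihood test of edgeR, adjusted p = 0.000104). *Psat1* was measured at 317, 348 and 404 CPM in control and 307, 314 and 300 CPM in *Thada*-activated libraries, with control replicate 3 the highest library. Its term was -0.33 (SE 0.09 and, in the quasi-likelihood test of edgeR, adjusted p = 0.0114). The term did not pass in DESeq2 or without *Thada*-activated replicate 1 (-0.35) or replicate 2 (-0.31). *Shmt2*, which converts serine to glycine in mitochondria, had 230, 204 and 172 CPM in control and 222, 215 and 128 CPM in *Thada*-activated libraries. It was lower in replicate 3 of both conditions, further so in *Thada*-activated cells, with a term of -0.43 (SE 0.10 and, in the quasi-likelihood test of edgeR, adjusted p = 0.00189). *Mthfd2*, the next enzyme of mitochondrial folate metabolism, had 137, 134 and 144 CPM in control and 129, 132 and 99.6 CPM in *Thada*-activated libraries and a term of -0.48 (SE 0.09 and, in the quasi-likelihood test of edgeR, adjusted p = 0.0004). *Aldh18a1*, which makes the precursor of proline and ornithine, was measured at 165, 159 and 195 CPM in control and 154, 162 and 132 CPM in *Thada*-activated libraries. Its replicate 3 was the highest control library and the lowest activated library, with a term of -0.52 (SE 0.09 and, in the quasi-likelihood test of edgeR, adjusted p = 6.88e-05). *Slc3a2*, the heavy chain shared by the *Slc7a5* and *Slc7a11* transporters, had 244, 245 and 340 CPM in control and 240, 248 and 241 CPM in *Thada*-activated libraries. Control replicate 3 alone was high, and the term was -0.50 (SE 0.09 and, in the quasi-likelihood test of edgeR, adjusted p = 7e-05). *Cth* had the largest term of the 13, -0.90 (SE 0.23 and, in the quasi-likelihood test of edgeR, adjusted p = 0.00656), and it lost its call without *Thada*-activated replicate 1 (-0.84, adjusted p = 0.0679 in that edgeR test, where the adjusted p-values of its alternatives ranged from 0.000963 to 0.0679). It was not among the 8 genes of DESeq2, which gave it the same term but no adjusted p.

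**Figure D3:**
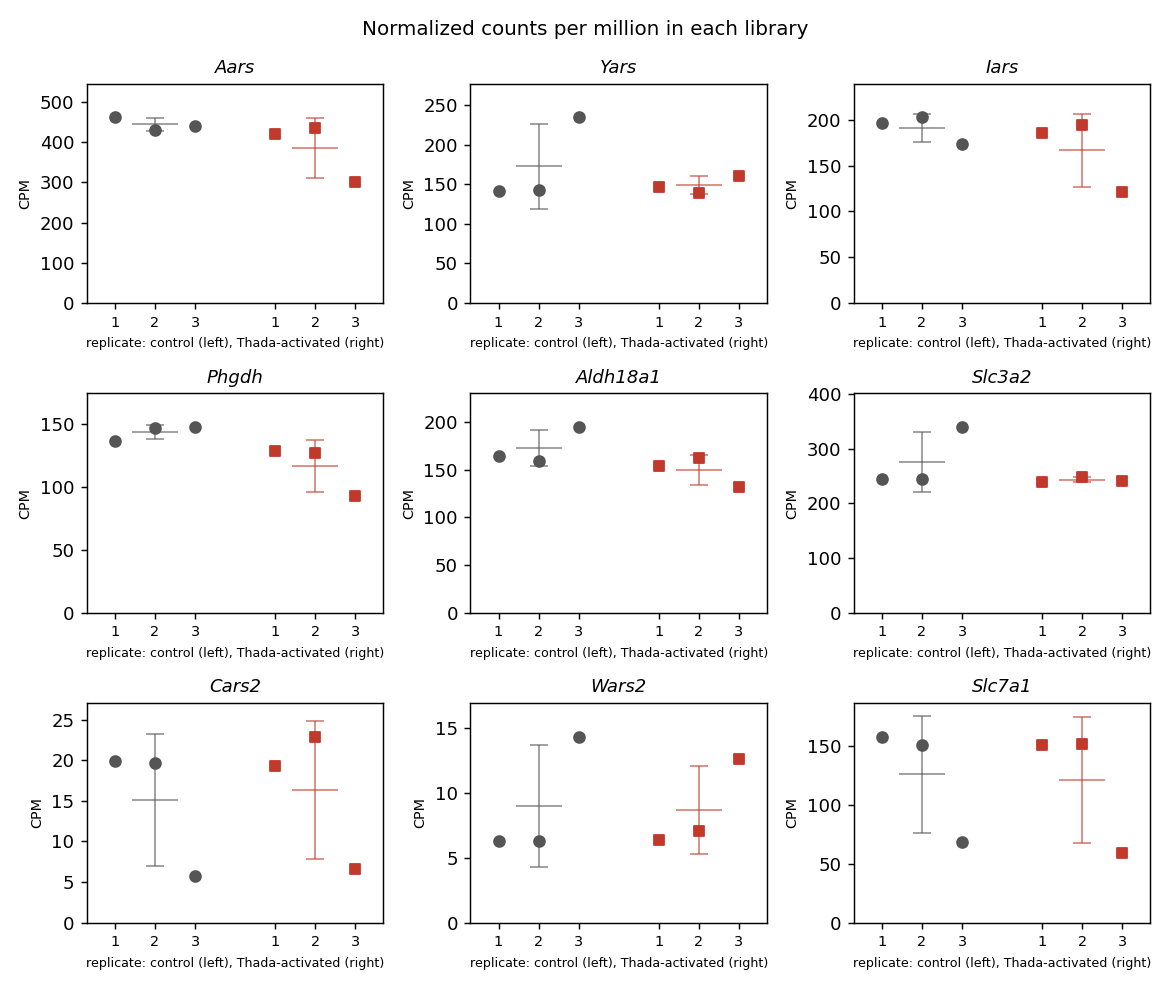
CPM of 9 genes in each library, with control replicates 1 to 3 on the left (circles) and *Thada*-activated replicates 1 to 3 on the right (squares), and with marks and bars for the mean ± SD of the 3 libraries of a condition. In *Aars*, *Iars* and *Phgdh*, *Thada*-activated replicate 3 is the lowest library, in *Yars* and *Slc3a2* control replicate 3 is the highest, and in *Cars2*, *Wars2* and *Slc7a1* both replicate 3 libraries stand apart.

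Other genes of these pathways were taken from lists. Of 21 listed genes of the ATF4 and amino acid response, 7 had a negative interaction term at an adjusted p under 0.05 in edgeR's quasi-likelihood test and 0 a positive one, beside 3.26% and 3.7% of all tested genes (*Atf4*, *Ddit3*, *Trib3*, *Asns*, *Cebpb*, *Cebpg* and *Eif4ebp1*), with a list median of -0.23. DESeq2 gave 2, and without *Thada*-activated replicate 1 or replicate 2 there were 3 and 3, against 11 and 8 without control replicate 1 or replicate 2. *Atf4* itself was measured at 366, 368 and 275 CPM in control and 339, 343 and 211 CPM in *Thada*-activated libraries. It was lowest in replicate 3 of both conditions, with a term of -0.27 (SE 0.09 and, in the quasi-likelihood test of edgeR, adjusted p = 0.0409). *Asns*, the asparagine synthetase and a classical ATF4 target, had 511, 540 and 671 CPM in control and 469, 484 and 488 CPM in *Thada*-activated libraries and a term of -0.32 (SE 0.08 and, in the quasi-likelihood test of edgeR, adjusted p = 0.0109), with control replicate 3 the highest. *Ddit3*, which encodes CHOP, had 32.5, 33.5 and 166 CPM in control and 26.9, 25.1 and 76.3 CPM in *Thada*-activated libraries. It rose in replicate 3, by 1.97 on the log2 scale with both conditions in the fit, and less so in *Thada*-activated cells, with a term of -0.77 (SE 0.11 and, in the quasi-likelihood test of edgeR, adjusted p = 1.08e-06). In the comparison of replicate 3, 3 of the 21 were called higher (*Ddit3*, *Nupr1* and *Ppp1r15a*) and 3 lower (*Atf5*, *Chac1* and *Gcn1l1*), close to the 15.7% and 15.4% of all tested genes. Between conditions 0 of the 21 were called by edgeR, with 0 at an unadjusted p under 0.05 and 0 called by DESeq2, and the median was -0.17. In the fit with the replicate block 0 were called, and 10 were lower at an unadjusted p under 0.05, where 4.34% of all tested genes were. In replicates 1 and 2 only, 3 were lower at an adjusted p under 0.05 in edgeR's test (*Ddit3*, *Chac1* and *Nupr1*), where 1.44% of the tested genes were, and 1 was higher (*Cebpb*), where 1.97% were. With the block in those replicates *Chac1* no longer passed (adjusted p = 0.0511 in edgeR's test).

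The counts in the next 4 lists stand beside 15.7% of all tested genes called higher and 15.4% called lower in replicate 3, and 3.26% with a negative interaction term at an adjusted p under 0.05. At an unadjusted p under 0.05 in edgeR's test, 21.1% of all tested genes passed for the interaction in either direction. Of 14 scaffold and charging partners, 0 passed for the interaction in edgeR (0 at an unadjusted p under 0.05, 0 by DESeq2), and 2 were called higher in replicate 3 (*Aimp1*, 0.79, a scaffold of the multisynthetase complex, and *Pstk*, 0.96, the kinase of selenocysteine synthesis) and 1 lower (*Aimp2*, -0.63, another scaffold). Of 11 tested other transporters, 2 had a negative term, *Slc7a3* for cationic amino acids (-0.56) and *Slc6a9* for glycine (-0.76), and 5 were called lower in replicate 3 (*Slc38a2*, *Slc7a3*, *Slc7a8*, *Slc43a2* and *Slc16a10*). DESeq2 gave 1 of the 11 for the interaction. Of 13 tested other enzymes of serine, glycine, folate and methionine metabolism, 1 had a negative term (*Aldh1l2*, -0.51), 3 were called higher in replicate 3 and 3 lower, with *Tyms*, the thymidylate synthase (-1.85), and *Mat2a*, which makes S-adenosylmethionine (-1.19), among the latter. Of 11 tested proline, glutamine and aspartate enzymes, 0 passed for the interaction in edgeR (0 at an unadjusted p under 0.05, 0 by DESeq2), *Ass1* was called higher in replicate 3 and *Glul* lower. In replicate 3, the median was -0.18 over the transporters and 0.16 over the proline, glutamine and aspartate enzymes. Between conditions 0 genes of these 4 lists were called by edgeR (0 at an unadjusted p under 0.05) and 0 by DESeq2.

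Promoter stretches are shown from a search of all members with a window, whatever their interaction result, and most of these members held no match. The stretches are those that hold the letters TGATGNAA on either strand (TTNCATCA read on the opposite one), the shared part of the element bound by ATF4 with C/EBP proteins. The windows run from 250 bases before to 50 after an annotated start (RefSeq, GRCm38.p6), and 3.97% of 32851 windows held the letters, which was 4.51% of genes. Of the 40 members with a window, 7 held a match: 5 of 13 cytosolic synthetases, 2 of 13 supply genes and 0 of 14 mitochondrial synthetases. A match describes the sequence and does not make it a site. Members without a window included *Cars*, *Cth*, *Hars*, *Lars*, *Nars*, *Slc7a5* and *Vars*. The stretches around the matches are printed 5′ to 3′ on the strand of the gene, with the match in capitals, and those of *Slc7a11* overlap.
Aars, chr8:111033704-111033763, plus strand: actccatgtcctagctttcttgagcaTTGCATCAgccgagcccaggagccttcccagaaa
Aars, chr8:111033840-111033869, plus strand: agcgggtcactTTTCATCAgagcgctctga
Yars, chr4:129189895-129189924, plus strand: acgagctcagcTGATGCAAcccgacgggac
Iars, chr13:49682126-49682155, plus strand: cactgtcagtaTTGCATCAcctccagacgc
Tars, chr15:11399655-11399684, minus strand: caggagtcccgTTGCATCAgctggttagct
Gars, chr6:55037960-55037989, plus strand: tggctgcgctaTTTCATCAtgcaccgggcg
Pycr1, chr11:120643818-120643877, minus strand: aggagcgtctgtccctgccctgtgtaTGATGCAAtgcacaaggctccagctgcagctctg
Slc7a11, chr3:50443646-50443705, minus strand: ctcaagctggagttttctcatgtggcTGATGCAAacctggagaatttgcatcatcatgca
Slc7a11, chr3:50443627-50443686, minus strand: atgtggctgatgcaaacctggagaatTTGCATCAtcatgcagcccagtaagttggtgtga
Of the 13 members that passed for the interaction, 10 had a window, and 7 of these held no match (*Mars*, *Aldh18a1*, *Mthfd2*, *Phgdh*, *Psat1*, *Shmt2* and *Slc3a2*). Of the 7 genes with a match, *Aars*, *Iars* and *Yars* had a negative interaction term at an adjusted p under 0.05 in edgeR's test, and *Tars*, *Gars*, *Pycr1* and *Slc7a11* did not, with terms of -0.20, -0.19, -0.24 and -0.53.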

How the data were processed

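Total RNA of control and *Thada*-activated MIN6 cells was measured in 6 libraries. The authors deposited an expected count (an estimated count that need not be whole) per gene and library, without normalization. The authors also deposited FPKM values, scaled by gene length and library size. The submitters' processing notes name Bowtie2, RSEM, DESeq2 and GRCm38 without versions of the tools. The deposited log2 fold changes, p-values and q-values of the authors' DESeq2 comparison were not used. Counts were rounded, filtered by filterByExpr, normalized by TMM and tested in edgeR 4.0.16 (R 4.3.3) by its quasi-likelihood test with robust dispersions and Benjamini-Hochberg adjustment over 12516 genes. Standard errors are the log2 fold change over the square root of F. The conditions were compared with condition alone, and replicate 3 with condition in the model. DESeq2 1.42.0, other scaling, no filter, the replicate block and each library left out were alternatives, and the interaction term was added after the data were seen. Log2 CPM used a prior count of 0.5. Scripts used Python 3.11.15 and pandas 2.3.3, and the fits were tested on simulated counts.

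The members and lists were chosen with earlier results of these data known. Besides *Thada*, genes were chosen by rule. In each class they were the 4 with the largest difference in replicate 3 and the 2 with the largest between conditions. The highest and lowest in FPKM of each class were added. Genes of the interaction were named after their values were seen. Other members, such as *Ears2*, *Lars2*, *Nars2*, *Psph* and *Shmt1*, were named outside this rule. Some members are counted in their class but not reported by name. Replicate numbers come from the labels. For the block, these numbers were taken to pair the libraries. Deviations from the condition means of same-numbered libraries correlated across genes at 0.596, 0.607 and 0.842 for replicates 1, 2 and 3. Replicates 1 and 2 crossed gave 0.652 and 0.691, above their same-numbered values, and either crossed with replicate 3 from -0.744 to -0.715. The values set replicate 3 apart in both conditions but do not show how replicates 1 and 2 pair. No pair of libraries of a condition was a duplicate, with chi-square values per degree of freedom from 1.81 upward. When scaled by library totals alone, without TMM normalization, a single count was between 0.0564 and 0.0583 CPM. A text cell split over lines in the table was shortened at the break, which touched no value used here. Gene positions and promoters came from RefSeq (GRCm38.p6).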

Additional observations from a re-analysis of the deposited data

Results flagged for a closer look

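An interaction term, for the difference between *Thada*-activated and control cells in replicate 3 minus that in replicates 1 and 2, passed for 13 of the 52 genes at an adjusted p under 0.05 in edgeR's quasi-likelihood test and was chosen after the values were seen. All 13 terms were negative, where 3.26% of all tested genes had a negative and 3.7% a positive term that passed. The terms on the log2 scale were *Aldh18a1* (-0.52), *Cth* (-0.90), *Mthfd2* (-0.48), *Phgdh* (-0.52), *Psat1* (-0.33), *Shmt2* (-0.43), *Slc3a2* (-0.50), *Aars* (-0.49), *Cars* (-0.29), *Iars* (-0.45), *Mars* (-0.28), *Vars* (-0.29) and *Yars* (-0.56). The term also passed for 7 of the 21 listed ATF4 and amino acid response genes, *Atf4* (-0.27), *Ddit3* (-0.77), *Trib3* (-0.53), *Asns* (-0.32), *Cebpb* (-1.31), *Cebpg* (-0.35) and *Eif4ebp1* (-0.86), and for *Slc6a9* (-0.76), *Slc7a3* (-0.56) and *Aldh1l2* (-0.51). It passed as well for 5 of the 8 tested β-cell markers, *Ins2* (-0.40), *Iapp* (0.42), *Mafa* (-0.46), *G6pc2* (0.51) and *Nkx2-2* (-0.35), in both directions, and for *Thada* itself (0.52). DESeq2 gave 8 of the 52 genes, 2 of the 21 ATF4 and amino acid response genes and 1 of the 8 β-cell markers, beside 1.04% of all tested genes. Each term rests on 1 library per condition in replicate 3, and is set against the spread between replicates 1 and 2, so a difference between those libraries and a difference between the conditions cannot be told apart.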

How the results depend on the processing

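No alternative called any of the 52 genes between conditions. The number of all genes called, 0 by edgeR (101 at an unadjusted p under 0.05), was 5 with the DESeq2 Wald test, 19 with the replicate block, 20 with the block in DESeq2, 42 with replicate 3 as a batch term, 68 in replicates 1 and 2 only and 0 with each library left out. Chosen after seeing the data, the block gave 28 with no fold threshold and 70 in replicates 1 and 2 only. Among the genes named here, the replicate block changed no other call than that of *Thada*; in replicates 1 and 2 only, *Nars*, *Chac1*, *Aldh1l2* and *Glul* passed in edgeR's test without the block and not with it, and *Ins1* with it and not without. With 1 library left out, the medians between conditions ranged from -0.14 to -0.02 (cytosolic), from -0.02 to 0.09 (mitochondrial, -0.02 without control replicate 3) and from -0.23 to -0.03 (supply). Signs turned for *Yars* (from -0.34 to 0.07 with 1 library left out, 0.07 without control replicate 3, and 0.01 in replicates 1 and 2 only, with and without the block), *Fars2* (from -0.57 to 0.27) and *Sars2* (from -0.14 to 0.47). *Fars2* and *Sars2* kept their signs with the block (-0.13 and 0.11) and in replicates 1 and 2 only (-0.17 and 0.18). In replicate 3, 14 of the 52 were called, from 13 to 18 with 1 library left out and 35 with no fold threshold, and of all genes 3893, from 3648 to 4082 and 8592. In the same order of classes, the medians ranged from -0.24 to -0.07, from -0.22 to -0.11 and from -0.26 to 0.06; in control libraries only they were -0.07, -0.22 and 0.06, and in *Thada*-activated libraries only the mitochondrial median was -0.11. In replicate 3, no sign of the 12 genes chosen for it by rule turned. The interaction passed for 13 of the 52 and 871 genes, 8 and 130 with DESeq2, 1 and 227 with a fold change over 1.5, and from 8 to 18 and from 316 to 1757 with 1 library of replicates 1 and 2 left out; without a replicate 3 library it cannot be estimated. Its medians were -0.16, 0.13 and -0.29 with library totals alone and ranged from -0.21 to -0.18, from 0.05 to 0.10 and from -0.35 to -0.26. The cause of these changes was not tested.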
